A study of Mus musculus with 12 samples.

Results

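Rorb and Rora encode retinoic acid receptor-related orphan receptors, and both were followed over the left ventricles of adult mice in which Nkx2-5, a homeodomain factor of heart muscle, had been deleted from trabeculae before birth. These 2 genes were examined among 34844 gene names on the array, each with 2 probes. Rorb was chosen by its signal, which was higher in both mutants than in controls on both of its probes, so those differences are given here as a description, without a test. Rora, the other ROR gene examined, was not picked for its values.

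The hearts came from mice of 6 months, and RNA was taken from the wall and apex of the left ventricle without the septum. Each of the 3 groups held 4 hearts, with 1 single-colour array per heart. In the Nkx2-5ΔTrbE10 group, tamoxifen had been given to the pregnant mothers at E10.5 and E11.5 (embryonic days), and in the Nkx2-5ΔTrbE14 group at E13.5 and E14.5. The mutants carried the Floxed-Nkx2-5-∆Neo allele and the Cx40-creERT2 driver, a tamoxifen-inducible Cre expressed from the connexin40 locus. According to the methods, controls were littermates with the floxed allele and no Cre, while the sample labels call the controls non-injected. The methods also state that newborns were recovered by caesarean section and raised by CD1 foster females. Connexin40 marks trabecular and conducting muscle and arterial endothelium, so recombination reaches only some of the cells in the tissue that was sampled. In such tissue, a change in RNA per cell cannot be told apart from a change in the number of cells that carry the RNA.

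RORs are nuclear receptors that bind DNA as monomers, at an AGGTCA half-site preceded by A and T bases, and activate transcription. The repressors Nr1d1 and Nr1d2, also called REV-ERBs, compete for the same elements, and the balance of both families drives the rhythm of Arntl, Npas2, Clock, Cry1 and Nfil3 in the circadian clock. Rora is expressed in many tissues, including muscle and cerebellum, and Rorb is best known from retina, pineal gland and cerebral cortex.

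The oligonucleotides that measured these receptors are shown because the account of Rorb rests on separate stretches of sequence that gave the same order of groups. The first 30 bases of each 60-base probe are printed in lower case, 5′ to 3′ in the sense of the transcript. Coordinates are those of the mm9 build used in the scanner files.
Rorb, dimmer probe, chr19:19012149-19012208, minus strand: cctgagtggggctcttttgtttgttcgttt
Rorb, brighter probe, chr19:19006883-19006942, minus strand: tggtgggcgctcccatgtcaccagcacagc
Interval probe 1, chr19:19005977-19006036, minus strand: ggcgcttttttccctgcatcccaaatatga
Interval probe 2, chr19:19005198-19005257, minus strand: ggggtttgtccttattttatgtcctgtaaa
Interval probe 3, chr19:19005110-19005169, minus strand: cctgtaaatgacaatcaatgtttatgactt
Rora, brighter probe, chr9:69226774-69226833, plus strand: gcgcccgagcacttctagaacatctggagt
Rora, dimmer probe, chr9:68511835-68511894, plus strand: tagttttcagtcaggaaaccagtggatgat

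The dimmer Rorb probe starts at position 2179 of the RefSeq transcript NM_001043354 and the brighter at position 7445 of the Ensembl transcript ENSMUST00000112832, 5266 bases further along the strand. The 3 interval probes carry no gene name and are listed by a transcribed interval, chr19:19005109-19008657, on the same strand. That interval contains the brighter Rorb probe. None of the pairs among these 5 probes overlaps (0 overlapping pairs), and together they span 7099 bases. They also differ in composition, since T makes up 31 of the 60 bases of the dimmer Rorb probe and 12 of the 60 of the brighter one. The brighter Rora probe starts at position 1582 of NM_013646, whereas the dimmer one lies 714939 bases upstream and is listed under other Ensembl and predicted RefSeq transcripts. The 2 Rora probes therefore may not measure the same RNA. The 2 Rorb probes share no listed transcript either, so the same limit holds for them.

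All signals are log2 values of the processed, quantile-normalized intensity, and a probe was called above background where the scanner software marked it so. Between 22888 and 26155 probes were above background per heart, and no spot was saturated. Of 55681 probes, 24593 were kept, standing for 18021 genes, and both probes of Rorb and both of Rora were among them. All control and Nkx2-5ΔTrbE14 arrays shared 1 slide, where the row of the array followed the group, and all Nkx2-5ΔTrbE10 arrays were on another slide, so that slide and the early deletion cannot be told apart. Nkx2-5 itself had 11.95, 12.23, 11.93 and 11.89 in controls and 11.27, 11.67, 11.21 and 11.22 in Nkx2-5ΔTrbE10, where it fell (log2 difference -0.66, SE 0.142, limma adjusted p = 0.0459). This call was lost in 10 of the 12 fits that left out 1 heart, all but those without Nkx2-5ΔTrbE10 replicate 2 or Nkx2-5ΔTrbE14 replicate 1, with adjusted p from 0.0155 to 0.129. It was also lost without a filter on background (limma adjusted p = 0.105) and in a fit of 2 groups only (0.0676). In Nkx2-5ΔTrbE14 Nkx2-5 stood at 11.41 ± 0.234 (SD, n = 4; -0.59, SE 0.142, limma adjusted p = 0.106). The 7 ventricular cardiomyocyte markers tested, Myh6 and Actc1 among them, were all kept and none was called by limma in either mutant, beside 1.93% of all genes called in Nkx2-5ΔTrbE10 and 0.66% in Nkx2-5ΔTrbE14. Of these markers 0 and 1 had an unadjusted p under 0.05, beside 16.8% and 13.9% of all genes, so their counts are not set apart from that share. Myh6 and Actc1 both reached 18.24 at their highest. So high in the signal range, quantile normalization leaves few values, and these 2 genes had little room to differ. No call was made between mutants for any of 18021 genes (limma adjusted p under 0.05, 0% called; 5.96% had an unadjusted p under 0.05), and SAM, the permutation method named by the study, called 3 of 24586 probes there.

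Rorb was low in control ventricles and higher in all mutant hearts. On the brighter probe, the 4 control hearts had log2 signals of 5.88, 6.30, 5.70 and 5.51. The 4 Nkx2-5ΔTrbE10 hearts had 7.70, 7.71, 7.59 and 7.69. The 4 Nkx2-5ΔTrbE14 hearts had 7.21, 7.46, 7.48 and 6.39. All 12 arrays were above background, the Nkx2-5ΔTrbE10 hearts lay close together, and the lowest Nkx2-5ΔTrbE14 heart, replicate 4, was just above the highest control. The group means were 5.85 ± 0.337 in controls, 7.68 ± 0.0566 in Nkx2-5ΔTrbE10 and 7.13 ± 0.509 in Nkx2-5ΔTrbE14 (SD, n = 4 each). Rorb was thus 3.55-fold higher in Nkx2-5ΔTrbE10 (log2 difference 1.83, SE 0.232) and 2.44-fold higher in Nkx2-5ΔTrbE14 (1.29, SE 0.232) than in controls. The absence of overlap is part of how Rorb was chosen: over all genes, the mutant group lay wholly above controls in 4.94% in Nkx2-5ΔTrbE10 and 4.65% in Nkx2-5ΔTrbE14. With normexp background correction, which raises low signals, the differences shrank to 1.17 and 0.78.

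**Figure D1:**
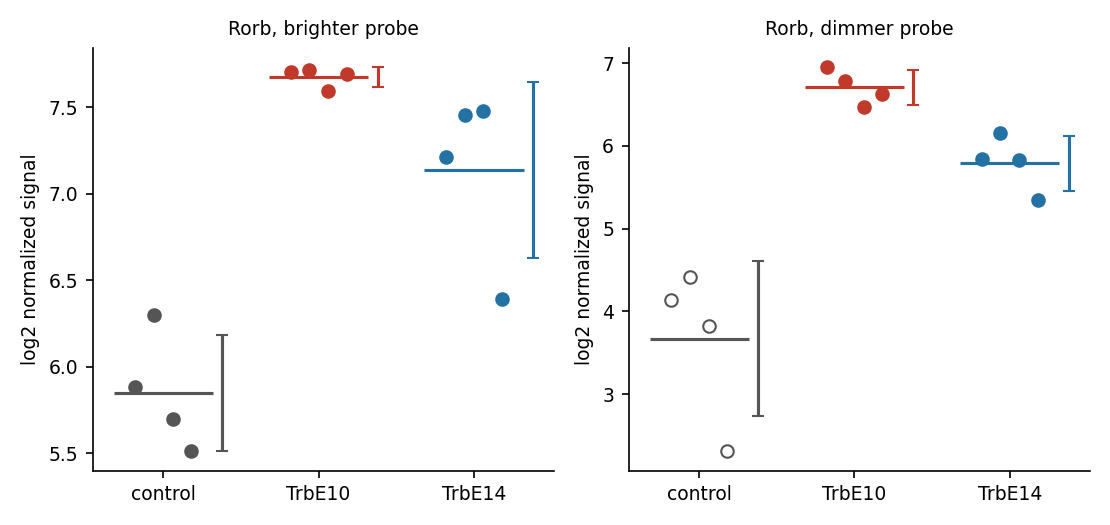
Log2 normalized signal of the 2 Rorb probes (vertical axes) in each heart of the 3 groups, with group mean (line) and SD (bar beside it). Filled points are above background and open points are not. All 4 control hearts are open on the dimmer probe, and on both probes the Nkx2-5ΔTrbE10 hearts (TrbE10) lie above the Nkx2-5ΔTrbE14 hearts (TrbE14), which lie above controls.

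On the dimmer Rorb probe, none of the 4 controls was above background, with signals of 4.14, 4.41, 3.83 and 2.31. The Nkx2-5ΔTrbE10 hearts had 6.96, 6.78, 6.47 and 6.63, and the Nkx2-5ΔTrbE14 hearts 5.84, 6.16, 5.83 and 5.35, all above background. The dimmer probe was therefore detected in 8 of 8 mutant hearts and in 0 of 4 controls. Since the control level is only a bound, each control array was set to the lowest signal of any probe above background on it, or to the probe's own signal if higher. On that footing, and in the processing used here, the dimmer probe was at least 4.60-fold higher in Nkx2-5ΔTrbE10 and at least 2.44-fold higher in Nkx2-5ΔTrbE14. The measured log2 differences of 3.04 and 2.12 rest on control signals at background, and they fell to 1.10 and 0.62 with normexp correction and to 1.62 and 0.71 in the values normalized by the authors. The fold bounds are not met in those alternatives, so they hold only for the processing used here. The differences from control on the dimmer probe exceeded those on the brighter by 1.21 and 0.84 on the log2 scale. Around their own group means, both probes deviated in the same direction in 10 of 12 hearts.

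The 3 interval probes gave the same order of groups. On interval probe 3, the brightest of them, controls had 6.33, 7.10, 6.72 and 6.53, Nkx2-5ΔTrbE10 hearts 8.44, 8.21, 8.16 and 8.40, and Nkx2-5ΔTrbE14 hearts 7.94, 8.12, 7.84 and 7.35. Its differences from control were 1.63 and 1.14 (SE 0.187 each), and the groups did not overlap. Interval probe 2 stood at 5.39 ± 0.513 in controls, 7.62 ± 0.184 in Nkx2-5ΔTrbE10 and 6.95 ± 0.221 in Nkx2-5ΔTrbE14 (SD, n = 4 each). Interval probe 1, above background in 1 of 4 controls and in all 8 mutants, stood at 3.31 ± 1.18, 5.91 ± 0.171 and 5.22 ± 0.303. With normexp correction, the Nkx2-5ΔTrbE10 differences on interval probes 1, 2 and 3 shrank to 0.72, 1.18 and 1.10, and those in Nkx2-5ΔTrbE14 from 1.92, 1.57 and 1.14 to 0.36, 0.68 and 0.75. The 5 probes were read in the same 12 hearts, so they add no animals, and whether they all report the same RNA was not tested. Nkx2-5ΔTrbE14 replicate 4 was the lowest of its group on 5 of 5 probes and control replicate 2 the highest of its group on 4 of 5.

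**Figure D2:**
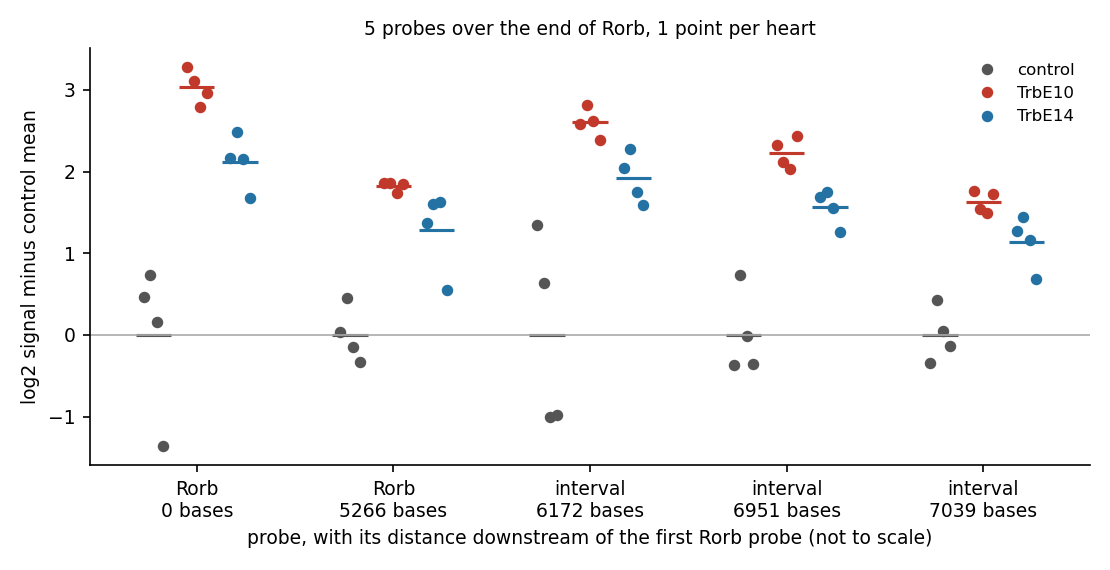
Log2 signal minus the control mean (vertical axis) in each heart for the 2 Rorb probes and the 3 interval probes, in order along the strand, with the number of bases from the first probe under each name; lines are group means. On every probe Nkx2-5ΔTrbE10 (TrbE10) lies above Nkx2-5ΔTrbE14 (TrbE14) and both above controls.

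Whether Rorb differed between the early and the late deletion was not part of how it was chosen, although the same hearts were used. The brighter probe was 1.45-fold higher in Nkx2-5ΔTrbE10 than in Nkx2-5ΔTrbE14 (log2 difference 0.54, SE 0.232, 95% interval 0.031 to 1.05), with all 4 hearts of the first group above all 4 of the second. Across all genes this did not pass the threshold (limma adjusted p = 0.856). The exact permutation test on this gene alone gave p = 0.0286, two-sided, the smallest value that 4 against 4 hearts allow. The mutant groups were on separate slides, so every comparison between them is also one between slides. The dimmer probe was 1.89-fold higher (0.91, SE 0.377, 95% interval 0.086 to 1.74, limma adjusted p = 0.846; exact permutation p = 0.0286). On the 3 interval probes the differences were 0.69, 0.66 and 0.49, with limma adjusted p from 0.713 to 0.939, and again without overlap. Over all genes, 3.37% had groups without overlap between the mutants and 1.64% had Nkx2-5ΔTrbE10 wholly above. Without Nkx2-5ΔTrbE14 replicate 4, the difference on the brighter probe dropped to 0.29 and that on the dimmer to 0.76.

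Rora was above background in all 12 hearts on its brighter probe and did not pass the test in any comparison. Controls had 9.06, 8.79, 8.91 and 8.85. Nkx2-5ΔTrbE10 hearts had 8.84, 8.63, 8.68 and 9.19, and Nkx2-5ΔTrbE14 hearts 8.75, 9.02, 9.02 and 9.15. The 3 groups overlapped, and Nkx2-5ΔTrbE10 replicate 4 was the highest of all 12 hearts. The log2 difference from control was -0.07 in Nkx2-5ΔTrbE10 (SE 0.133, 95% interval -0.36 to 0.23, limma adjusted p = 0.848). In Nkx2-5ΔTrbE14 it was 0.08 (SE 0.133, -0.21 to 0.37, limma adjusted p = 0.803), and between the mutants -0.15 (-0.44 to 0.14, limma adjusted p = 0.949). In fold terms, the intervals ran from 0.780 to 1.17 for Nkx2-5ΔTrbE10 and from 0.864 to 1.30 for Nkx2-5ΔTrbE14. The sign of each of these 3 differences turned when both Rora probes were averaged.

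The dimmer Rora probe, which is listed under other transcripts of the locus, had 5.68, 5.17, 4.83 and 5.19 in controls. It had 5.72, 5.50, 5.58 and 5.52 in Nkx2-5ΔTrbE10 and 4.67, 5.19, 5.51 and 4.88 in Nkx2-5ΔTrbE14. Every Nkx2-5ΔTrbE10 heart but replicate 2 was above every Nkx2-5ΔTrbE14 heart, and both mutants overlapped with controls. The difference from control was 0.36 in Nkx2-5ΔTrbE10 (SE 0.197, limma adjusted p = 0.399) and -0.16 in Nkx2-5ΔTrbE14 (SE 0.197, limma adjusted p = 0.737). Between the mutants it was 0.52 (SE 0.197, 95% interval 0.082 to 0.95, limma adjusted p = 0.797; exact permutation p = 0.0571).

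Signals of different probes do not rank Rorb and Rora by abundance, because probes differ in how well they hybridize.

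**Figure D3:**
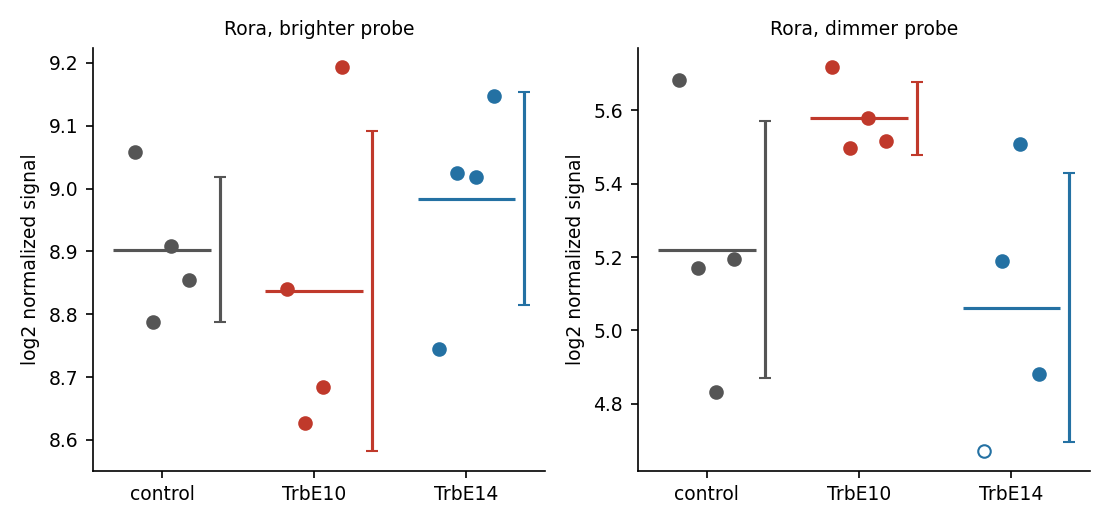
Log2 normalized signal (vertical axes, which do not start at 0) of both Rora probes in each heart, with group mean (line) and SD (bar beside it); filled points are above background and open points are not. Both mutant groups overlap with controls in both panels.

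The genes next to the receptors on the chromosome were read as well. Within 1 Mb of the Rorb probes the array named 10 other genes or intervals, of which 8 were kept. All of their probes lay downstream of the dimmer Rorb probe on its strand, so nothing on the upstream side was read. Apart from the interval that contains the Rorb probe, none of them was called by limma in either mutant, and 1 had an unadjusted p under 0.05 in each, where 16.8% of all genes in Nkx2-5ΔTrbE10 and 13.9% in Nkx2-5ΔTrbE14 did. Within 1 Mb of the Rora probes there were 24, of which 13 were kept. Of these 0 were called by limma, beside 1.93% and 0.66% of all genes in Nkx2-5ΔTrbE10 and Nkx2-5ΔTrbE14. At an unadjusted p under 0.05 there were 2 and 0, not above the 16.8% and 13.9% of all genes. The nearest kept neighbours of Rora were D930001M23Rik, which differed from control by 0.24 and 0.30 (limma adjusted p = 0.585 and 0.502), and Narg2, by -0.12 and -0.13 (0.622 and 0.582).

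The clock list held 17 genes, of which 14 were kept, while Npas2, Cry1 and Ciart were not. Of the ROR-driven genes named above, Arntl, Clock and Nfil3 were kept. The list also holds other clock genes, such as Per2 and Dbp, so its counts are not those of ROR targets alone. None of the 14 was called in Nkx2-5ΔTrbE10, where 1.93% of all genes were called, and none in Nkx2-5ΔTrbE14, where 0.66% were called. None had an unadjusted p under 0.05 by limma, beside 16.8% and 13.9% of all genes in Nkx2-5ΔTrbE10 and Nkx2-5ΔTrbE14. SAM called 0 in either mutant. The median log2 difference of the list was -0.01 in Nkx2-5ΔTrbE10 and 0.04 in Nkx2-5ΔTrbE14, beside -0.02 and -0.03 over all genes. Arntl, the activator that RORs switch on, differed by -0.08 and 0.12 (SE 0.554 each), and Clock, its partner, by 0.04 and 0.02 (SE 0.214 each). Nfil3, another ROR-responsive gene, differed by -0.43 and -0.23 (SE 0.454 each). Nr1d1 and Nr1d2, the competing repressors, differed by 0.0042 and 0.71 (SE 0.548 each) and by -0.17 and -0.03 (SE 0.269 each). Per2, a negative regulator of the clock, differed by -0.22 and -0.31 (SE 0.817 each). The standard errors of Arntl, Nfil3, Nr1d1, Nr1d2 and Per2 were above the 0.232 of Rorb, and that of Clock was below it.

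Clock genes varied widely between hearts of the same group. Per2 ran from 3.86 in replicate 2 to 7.76 in replicate 4 of Nkx2-5ΔTrbE10, and Nr1d1 from 9.95 to 12.05 in Nkx2-5ΔTrbE14. Dbp, an output gene of the clock with a strong daily rhythm, had 11.21, 13.94, 14.24 and 14.51 in controls. It had 13.75, 11.81, 14.22 and 14.20 in Nkx2-5ΔTrbE10 and 13.42, 11.98, 14.20 and 14.35 in Nkx2-5ΔTrbE14. One heart per group, control replicate 1, Nkx2-5ΔTrbE10 replicate 2 and Nkx2-5ΔTrbE14 replicate 2, was thus low. The same 3 hearts had the highest Arntl of their groups, 9.19, 9.37 and 9.45. Rorb on its brighter probe was 5.88, 7.71 and 7.46 in these hearts, within the range of the other hearts in controls and Nkx2-5ΔTrbE14 and next to the 7.70 of replicate 1 in Nkx2-5ΔTrbE10. Times of collection were not given in the sources used here.

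**Figure D4:**
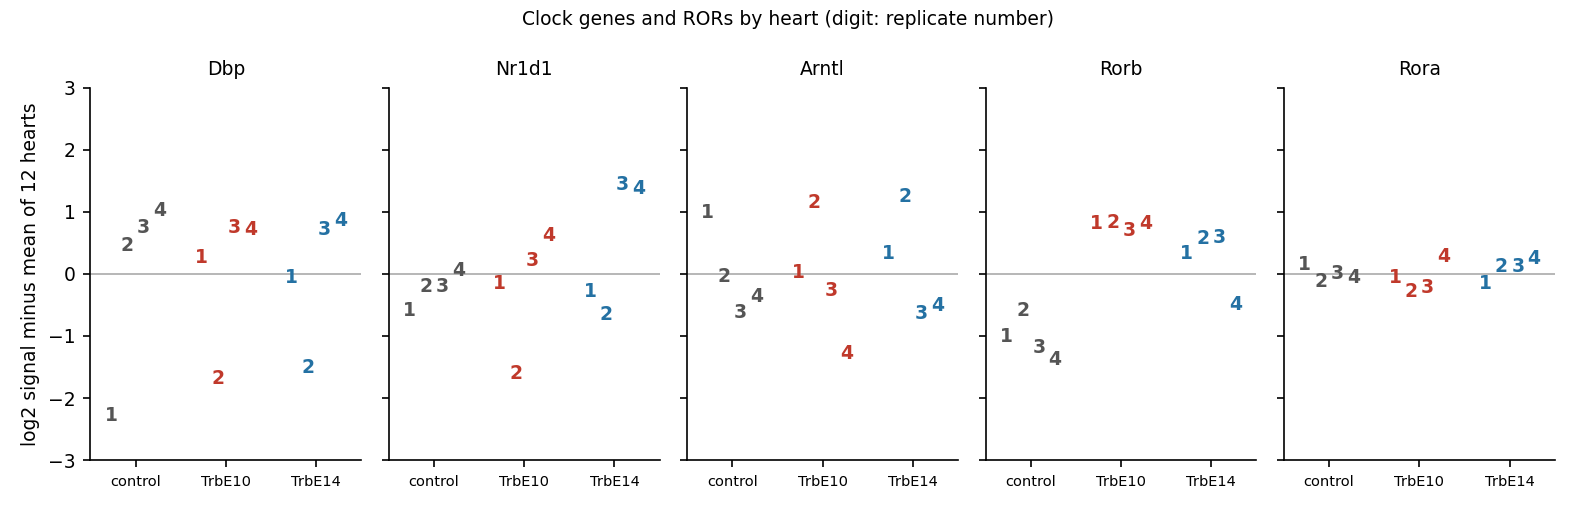
Log2 signal minus the mean of all 12 hearts (vertical axis) for Dbp, Nr1d1, Arntl, Rorb (brighter probe) and Rora (brighter probe); each digit is the replicate number of a heart, in its group's column. Dbp is low and Arntl high in 1 heart of each group, control 1, Nkx2-5ΔTrbE10 2 and Nkx2-5ΔTrbE14 2, and Rorb does not follow them.

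Other nuclear receptors were examined as a list of 46 genes, of which 33 were kept. None was called by limma or SAM in either mutant, and 6 and 3 had an unadjusted p under 0.05 in Nkx2-5ΔTrbE10 and Nkx2-5ΔTrbE14, where 16.8% and 13.9% of all genes did. In Nkx2-5ΔTrbE10 the lowest p belonged to Ppara, the fatty acid receptor of muscle, and to the estrogen-related receptor Esrrb. Ppara stood at 12.38 ± 0.306 in controls, 11.81 ± 0.255 in Nkx2-5ΔTrbE10 and 11.90 ± 0.129 in Nkx2-5ΔTrbE14 (SD, n = 4 each), with differences of -0.57 (limma adjusted p = 0.110) and -0.48 (limma adjusted p = 0.254). Without Nkx2-5ΔTrbE10 replicate 2, Ppara passed the threshold in Nkx2-5ΔTrbE10 (-0.70, limma adjusted p = 0.0415). Esrrb differed by -0.40 (limma adjusted p = 0.147) and -0.21 (limma adjusted p = 0.489). In Nkx2-5ΔTrbE14 the second lowest p after Ppara was that of Rara, a retinoic acid receptor, which was named after its values were seen (0.40, limma adjusted p = 0.257). The median difference of the list was -0.17 and -0.04, beside -0.02 and -0.03 over all genes.

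Of 24 cofactor genes, which encode the coactivators and corepressors that nuclear receptors recruit, 23 were kept and 0 were called by limma or SAM in either mutant. Among them 1 and 3 had an unadjusted p under 0.05, beside 16.8% and 13.9% of all genes. Ncoa6, a coactivator, differed by -0.24 (limma adjusted p = 0.278) and -0.31 (limma adjusted p = 0.246), with both mutant groups below controls. Nrip1, a corepressor, differed by 0.32 (limma adjusted p = 0.334) and 0.44 (limma adjusted p = 0.262).

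Genes known as ROR targets outside the clock numbered 25, drawn from cerebellum, retina, liver, muscle and T cells, and 8 of them were kept. The one called was Pcp4, which encodes a calmodulin-binding peptide of Purkinje cells and of the cardiac conduction system, and it was lower in both mutants. It passed the filter on background through controls alone, so a difference was built into its being kept, and the call is no support for the list. Over all genes, 0.649% were called lower in Nkx2-5ΔTrbE10 and 0.128% in Nkx2-5ΔTrbE14. Controls had 5.67, 5.35, 6.02 and 5.97, all above background, against 3.97, 4.69, 4.59 and 3.59 in Nkx2-5ΔTrbE10 and 3.29, 3.69, 4.22 and 3.78 in Nkx2-5ΔTrbE14. None of the 8 mutant hearts was above background. In the processing used here, Pcp4 was thus at least 2.21-fold lower in Nkx2-5ΔTrbE10 (limma adjusted p = 0.0181) and at least 2.48-fold lower in Nkx2-5ΔTrbE14 (limma adjusted p = 0.00605). With normexp correction the log2 differences shrank from -1.54 to -0.48 and from -2.01 to -0.47, so these fold bounds are not met there. Without a filter on background, the limma adjusted p was 0.0552 in Nkx2-5ΔTrbE10 and 0.0223 in Nkx2-5ΔTrbE14, and 3 of the 12 fits that left out 1 heart (control replicate 3, control replicate 4 or Nkx2-5ΔTrbE10 replicate 1) also lost the call in Nkx2-5ΔTrbE10. Cyp7b1, an oxysterol hydroxylase, differed by 0.64 in Nkx2-5ΔTrbE10 (limma adjusted p = 0.119) and by -0.17 in Nkx2-5ΔTrbE14 (limma adjusted p = 0.700). The muscle genes Cpt1b and Cav3 differed by -0.17 and -0.04 in Nkx2-5ΔTrbE10 and by 0.03 and 0.12 in Nkx2-5ΔTrbE14, and neither was called. The median difference of the 8 genes was -0.10 and -0.07.

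**Figure D5:**
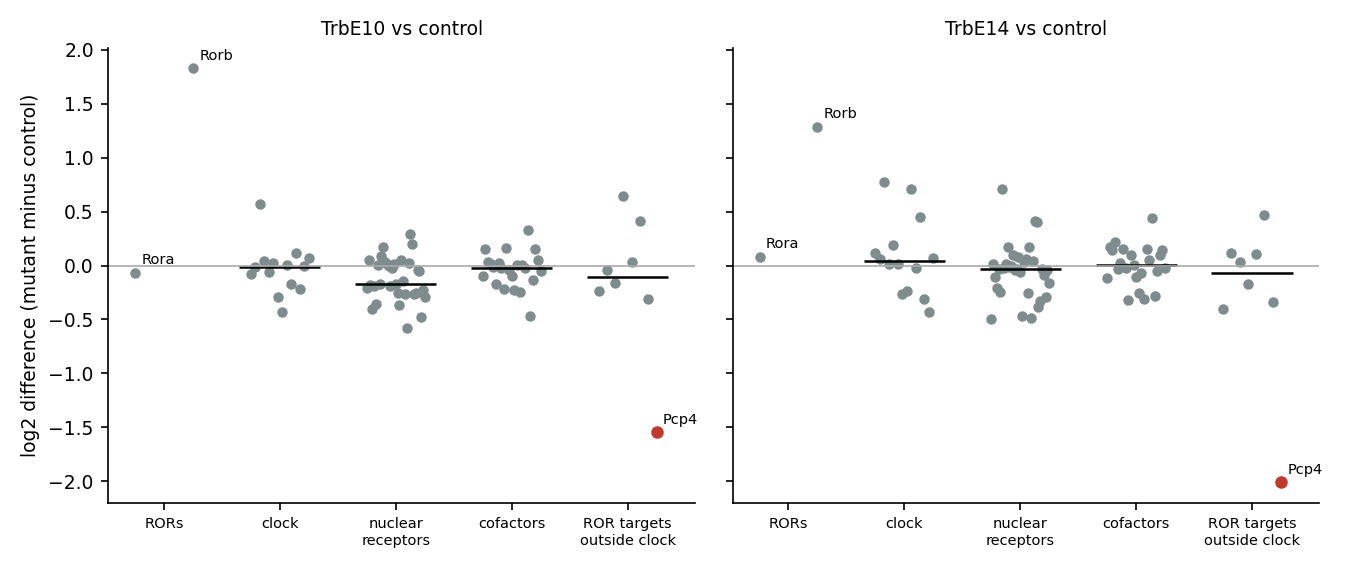
Log2 difference from control (vertical axis) for the kept genes of each list in Nkx2-5ΔTrbE10 (left) and Nkx2-5ΔTrbE14 (right); each point is a gene, black lines are list medians and red points passed an adjusted p of 0.05 by limma. Pcp4 is the one red point in each panel, and Rorb, which was chosen for its difference and carries no test, stands apart from Rora.

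The genes whose pattern over the 12 hearts was closest to Rorb were found by the root mean square difference between log2 signals, each centred on its mean over the hearts. Over 18014 genes compared, the median of this difference was 1.12, and the lowest was 0.329 for Gcgr, the glucagon receptor. Then came Slc7a8, a neutral amino acid transporter, at 0.388, and the interval that contains the Rorb probe, at 0.440. Gng2, a G protein gamma subunit, stood at 0.475, the unnamed transcript TC1653793 at 0.508, Stim1, the calcium sensor of the reticulum, at 0.510, Cd72, a lymphocyte and macrophage surface receptor, at 0.516, and Bin1, a membrane-bending protein of transverse tubules, at 0.522. These genes were picked for a small difference from Rorb over all 12 hearts, a measure that takes in the differences between groups. Their differences between any of the groups, and which hearts are high or low, are therefore a description only, without a test. Within groups they did not all follow Rorb. Nkx2-5ΔTrbE10 replicate 2 was the lowest of its group for 5 of the 8 and on 0 of the 5 probes over Rorb. Nkx2-5ΔTrbE14 replicate 4 was the lowest of its group for 6 of the 8 and on 5 of those 5.

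Gcgr had 5.23, 5.49, 5.02 and 4.31 in controls, 7.29, 6.61, 7.25 and 6.93 in Nkx2-5ΔTrbE10 and 5.95, 6.35, 6.58 and 5.81 in Nkx2-5ΔTrbE14. Its groups were ordered as those of Rorb and did not overlap. Between the mutants Gcgr differed by 0.85 (SE 0.262) and Cd72 by 0.89 (SE 0.249), whereas Stim1 and Bin1 differed by 0.16 and 0.15 (SE 0.148 and 0.131). Slc7a8 was above background in 0 of 4 controls and in all mutant hearts, so it was kept through the mutants alone. With normexp its differences from control shrank from 2.13 and 1.62 to 0.66 and 0.50. Those of Gcgr shrank from 2.01 and 1.16 to 1.00 and 0.41. Closeness to Rorb was computed only in the processing used here.

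Markers of other cell types moved in the mutants along with Rorb, and their part in its difference was not tested. Of 7 macrophage markers, 6 were kept and 3 were called higher in Nkx2-5ΔTrbE10 (Csf1r, Fcgr1 and Cd68) and 1 in Nkx2-5ΔTrbE14 (Csf1r), beside 1.28% and 0.533% of all genes called higher. By limma 4 and 2 of the 6 had an unadjusted p under 0.05, beside 16.8% and 13.9% of all genes, and the median log2 differences were 0.66 and 0.35. Fcgr1 was above background in 0 of 4 controls, 4 of 4 Nkx2-5ΔTrbE10 and 3 of 4 Nkx2-5ΔTrbE14 hearts and so was kept through the mutants alone (limma adjusted p = 0.0464 in Nkx2-5ΔTrbE10 without a filter). The log2 of the summed signal of the 6 kept macrophage markers ran from 12.66 to 12.95 in controls. It ran from 13.65 to 13.82 in Nkx2-5ΔTrbE10 and from 13.43 to 13.56 in Nkx2-5ΔTrbE14, in the same order of groups as Rorb and without overlap. Bright genes weigh most in this sum of unlogged signals. Csf1r alone had means of 12.24, 13.38 and 13.15 in controls, Nkx2-5ΔTrbE10 and Nkx2-5ΔTrbE14, so the sum largely repeats its call. Csf1r was 2.21-fold higher in Nkx2-5ΔTrbE10 (limma adjusted p = 0.000112) and 1.89-fold higher in Nkx2-5ΔTrbE14 (limma adjusted p = 0.000607). Of 7 fibroblast markers, all kept, Dcn alone was called, by 0.39 (limma adjusted p = 0.0376) and 0.50 (limma adjusted p = 0.0190). In each mutant 5 of the 7 had an unadjusted p under 0.05 by limma, beside 16.8% and 13.9% of all genes. In Nkx2-5ΔTrbE10 7 and in Nkx2-5ΔTrbE14 6 were higher than in controls, with median log2 differences of 0.46 and 0.43. The summed signal ran from 16.06 to 16.21, from 16.39 to 16.65 and from 16.47 to 16.69 in controls, Nkx2-5ΔTrbE10 and Nkx2-5ΔTrbE14. Dcn alone had means of 15.73, 16.12 and 16.23, so it makes up most of this sum.

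Among 7 atrial markers, all kept, Bmp10 and Sln were called higher in Nkx2-5ΔTrbE10 and Bmp10 in Nkx2-5ΔTrbE14, beside 1.28% and 0.533% of all genes called higher. In Nkx2-5ΔTrbE14 Sln differed by 3.33 (limma adjusted p = 0.0511). It was called there by SAM, with normexp and in the authors' values, among other alternatives. In Nkx2-5ΔTrbE10 3 of the 7 were higher and 4 lower than in controls, with a median log2 difference of -0.02, and in Nkx2-5ΔTrbE14 5 were higher and 2 lower, with a median of 0.16. Bmp10 was above background in 0 of 4 controls and in all 8 mutants, so it too was kept through the mutants alone (limma adjusted p = 0.00172 and 0.00136 without a filter). Of 8 endothelial and endocardial markers, all kept, Npr3 was called in Nkx2-5ΔTrbE10 (1.24, limma adjusted p = 0.0247), beside the same share of all genes called higher. In Nkx2-5ΔTrbE14 Npr3 differed by 1.00 (limma adjusted p = 0.0967) and was called by SAM. In each mutant 7 of these 8 markers were higher than in controls and 1 lower, with median log2 differences of 0.21 and 0.24. By limma 2 and 3 had an unadjusted p under 0.05, beside 16.8% and 13.9% of all genes. The log2 of their summed signal ran from 12.81 to 12.94 in controls. It ran from 12.96 to 13.27 in Nkx2-5ΔTrbE10 and from 12.98 to 13.30 in Nkx2-5ΔTrbE14. In Nkx2-5ΔTrbE10, leaving out 1 heart ended the calls of Sln in 4, Npr3 in 5, Dcn in 9, Fcgr1 in 2 and Cd68 in 5 of 12 fits, and that of Dcn in Nkx2-5ΔTrbE14 in 4, while the calls of Csf1r and Bmp10 held in all 12. Of 8 neuron and Schwann cell markers, 5 were kept and 0 were called, with Syt1, Rbfox3 and Elavl4 not kept. Of 8 lymphocyte markers 4 were kept and 0 were called, with Cd3g, Cd8a, Ms4a1 and Il7r not kept, and of 7 conduction system markers 4 were kept and 0 were called, with Cntn2, Hcn4 and Kcne1 not kept. In these 3 lists, limma gave an unadjusted p under 0.05 for 0 genes in Nkx2-5ΔTrbE10 and for 1, Tbx3, in Nkx2-5ΔTrbE14. Over all genes, 1.93% and 0.66% were called, and 16.8% and 13.9% had an unadjusted p under 0.05. The conduction marker Gja5, which encodes connexin40, stood at 7.82 ± 0.734 in controls, 7.17 ± 0.288 in Nkx2-5ΔTrbE10 and 7.34 ± 0.579 in Nkx2-5ΔTrbE14 (SD, n = 4 each; limma adjusted p = 0.410 and 0.572).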

How the data were processed

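Left ventricular RNA of 12 mice was labelled with Cy3 and hybridized to Agilent SurePrint G3 arrays. The intensity values deposited by the authors are the scanner output of each array (Agilent Feature Extraction 10.5, per the submitters' processing notes) with background already subtracted. The authors also deposited log2 values after quantile normalization, used as an alternative. Probe coordinates are given in mm9 in the files.

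Here log2 processed intensity was quantile-normalized after removal of the 3671 control spots per array, with spots flagged as outliers set to missing (7 kept probes had a missing value). A probe was kept if it was above background in 3 or more of the 4 hearts of some group. Group means were compared with limma 3.58.1 in R 4.3.3 (9 residual and 2.19 prior degrees of freedom) with Benjamini-Hochberg adjustment over 24593 probes at 0.05; counts of genes take the brightest kept probe of each of 18021. Single probes were also compared by an exact permutation test over 70 label orders. The method was tested on simulated data. Figures were drawn with matplotlib in Python.

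Rorb, Rora and the gene lists were chosen with earlier results of these data known. Named genes were Rorb and Rora, 9 clock genes, Nkx2-5 and Gja5, the called genes of each other list or the 2 with the lowest p, the 8 genes most like Rorb, and called or nearest neighbours within 1 Mb. Some listed genes are not reported here. Litters are not given, so p-values measure the spread between these 12 hearts, whose number limits the precision. Alternatives were 75th percentile scaling, normexp (offset 50), a filter on 9 of 12 arrays or none, the authors' values, a fit of 2 groups, a block on replicate number, sex (1, 2 and 3 males among 4 control, Nkx2-5ΔTrbE10 and Nkx2-5ΔTrbE14 hearts, read from Y-linked genes) or Dbp as a covariate, flagged spots kept, the mean of a gene's probes, SAM and leaving out each heart.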

Additional observations from a re-analysis of the deposited data

Results flagged for a closer look

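In 10 of 132 groups of 4 hearts, 1 heart stood apart from the other 3 by a gap above the 95% limit of Dixon's test, where chance gives about 1 in 20. Rorb on its brighter probe was lowest in Nkx2-5ΔTrbE10 replicate 3 at 7.59, a gap that is small beside the difference from controls because the other 3 hearts agree closely. Control replicate 1 stood apart for Dbp, lowest at 11.2, and for Nfil3, highest at 11.3. Control replicate 3 stood apart for Npr3, lowest at 6.37, for Csf1r, highest at 12.4, and for S100b, lowest at 7.35. Control replicate 4 stood apart for Actc1, lowest at 17.9, and for Snap25, lowest at 12.2. Nkx2-5 was highest in Nkx2-5ΔTrbE10 replicate 2 at 11.7, and S100b in Nkx2-5ΔTrbE10 replicate 4 at 7.87.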

How the results depend on the processing

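Rorb was higher than control in both mutants under all 11 settings and all 12 fits without 1 heart. Its difference of 1.83 in Nkx2-5ΔTrbE10 moved to 1.17 with normexp and to 2.43 with the mean of its probes, and that of 1.29 in Nkx2-5ΔTrbE14 to 0.78 with normexp; without 1 heart they ran from 1.72 to 1.98 and from 1.18 to 1.53. The Rorb difference between mutants kept its sign and was not called, at 0.39 to 0.73 over settings and 0.29 to 0.66 without 1 heart. The uncalled Rora differences changed sign with the mean of its probes (0.15 in Nkx2-5ΔTrbE10, -0.038 in Nkx2-5ΔTrbE14, 0.18 between mutants), with sex as a covariate (-0.028 in Nkx2-5ΔTrbE14) and without Nkx2-5ΔTrbE10 replicate 2 (0.0039, in a range from -0.19). The mean of probes also turned Myh6 in Nkx2-5ΔTrbE10 to -0.17, and normexp turned Pcp4 between mutants to -0.012; 80 of 2843 further values of single genes, none called, changed sign within 1 SD of 0. The nuclear receptor list had 1 call in Nkx2-5ΔTrbE10 with sex as a covariate, and 0 to 2 without 1 heart. The ROR target call, Pcp4, became 0 in Nkx2-5ΔTrbE10 with the filter on 9 of 12 arrays, which removes this probe, and without a filter (0 to 1 without 1 heart), and 0 in Nkx2-5ΔTrbE14 with the filter on 9 of 12 arrays. Replicate numbers, which equal the column of the array on its slide, did not pair mutant hearts with controls. Correlations of same-numbered deviations ran from -0.24 to 0.48, with 3 of 12 over 0.1, and 4 of 12 hearts were closest to their own number. The 3 over 0.1 were all between the mutants (0.37, 0.31 and 0.48, the other being -0.01), where same-numbered hearts thus partly deviated together. A replicate block left the Rorb differences at 1.83, 1.29 and 0.54 (adjusted p between mutants 0.713) and ended the calls of Npr3 (adjusted p = 0.0734) and Dcn (adjusted p = 0.0764) in Nkx2-5ΔTrbE10 and of Dcn in Nkx2-5ΔTrbE14. In Nkx2-5ΔTrbE10 no filter on background and a fit of 2 groups ended those of Sln (adjusted p = 0.0571 and 0.0630), Cd68 (0.0519 and 0.0601), Npr3 (0.0717 and 0.0587) and Dcn (0.0512 and 0.0893), and 75th percentile scaling ended that of Dcn in both mutants (0.101 and 0.0588). Signal over background limits the dimmer Rorb probe and interval probe 1 in controls, where the sizes of the differences depend on the background correction.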
